A study of Mus musculus with 4 samples.

Results

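The aryl hydrocarbon receptor axis was measured in gamma delta intraepithelial lymphocytes. These T cells live within the gut epithelium and were sorted from mouse colon. Its 6 genes are the receptor Ahr, its DNA-binding partner Arnt, the repressor Ahrr and the target genes Tiparp, Cyp1a1 and Cyp1b1. The members were chosen by gene symbol: every probe set that the platform annotation gives to 1 of these genes alone was taken. This gave 15 probe sets of the 34958 that carry a single symbol, with 5 for Arnt, 3 each for Tiparp and Cyp1b1, 2 for Ahr and 1 each for Ahrr and Cyp1a1. All mice were C57b/6 and conventionally raised. The untreated group had 2 samples from mice that received no treatment, and the DSS group had 2 samples from mice that received dextran sulfate sodium (DSS) at 2% for 5 days and plain drinking water for the next 3 days. DSS damages the lining of the colon. Each sample was read on 1 array. The labels do not say how many animals a sample holds, or whether replicates were separate sorts. The p-values therefore reflect the spread between these arrays alone, which may be technical.

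Ahr is a ligand-activated transcription factor of the bHLH-PAS family. Without ligand it is held in the cytosol by chaperones, and with ligand, such as plant indoles, tryptophan metabolites or dioxins, it enters the nucleus, pairs with Arnt and binds DNA at a core of bases known as the xenobiotic response element. Its targets include enzymes that degrade the ligand (Cyp1a1 and Cyp1b1) and inhibitors that shut the response down (Ahrr and Tiparp). Ahr is required for intraepithelial lymphocytes to persist in the gut.

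The deposited values are linear signals with no detection calls. The median signal of an array was 157.1 to 213.9, and it serves here as a yardstick for dim probe sets. Of the T cell genes checked, 13 were measured and 12 of them, including Cd3d, Cd3e, Cd3g and the gamma chain gene Trgv4, lay above the array median on all 4 arrays. Hybridisation control signals ranged from 29832 to 44427 in the untreated group and from 6192 to 6308 in the DSS group, so array handling and treatment cannot be told apart. Over all probe sets the 2 untreated arrays correlated at r = 0.81, below every pair of an untreated and a DSS array (0.84 to 0.85) and below the DSS arrays (0.90), so the untreated arrays stood further from each other than from the DSS arrays. Beta-actin signal near the end of the transcript exceeded that near its start on all 4 arrays. The ratio was 14.69 and 23.01 in the untreated samples and 15.97 and 10.56 in the DSS samples, highest in untreated replicate 2. The part of this uneven signal along transcripts in the member values was not tested. Signals were compared as log2(signal + 32), a scale that understates differences of dim probe sets.

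The 6 genes did not share a direction. Ahr and Tiparp, on their brightest probe sets, had higher signals on each DSS array than on either untreated array. Ahrr overlapped between the groups, Arnt gave mixed values, and Cyp1a1 and 2 of the 3 Cyp1b1 probe sets were lower on both DSS arrays. After adjustment, limma called 0 of the 15 probe sets at 0.05, and 0% of all 34958. At an unadjusted limma p under 0.05, 1 member probe set was higher (Ahr) and 2 were lower (Cyp1a1 and a Cyp1b1 probe set), beside 3.08% of all probe sets higher and 3.43% lower.

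Without regard to size, 3 of the 15 (20.0%) lay higher on both DSS arrays and 4 (26.7%) lay lower, against 14.5% and 24.6% of all probe sets. These shares are near the background. The member counts were 3 higher and 3 lower after quantile normalization, against 18.1% and 18.6% of all probe sets, and the same after scaling to a common median, against 24.1% and 15.2%. At 2-fold or more on every array, 1 member probe set was higher and 3 (20.0%) were lower, against 3.11% and 5.32% of all probe sets. The higher one was Arnt 1419996_s_at, and the 3 lower ones belong to Cyp1a1 and Cyp1b1.

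**Figure D1:**
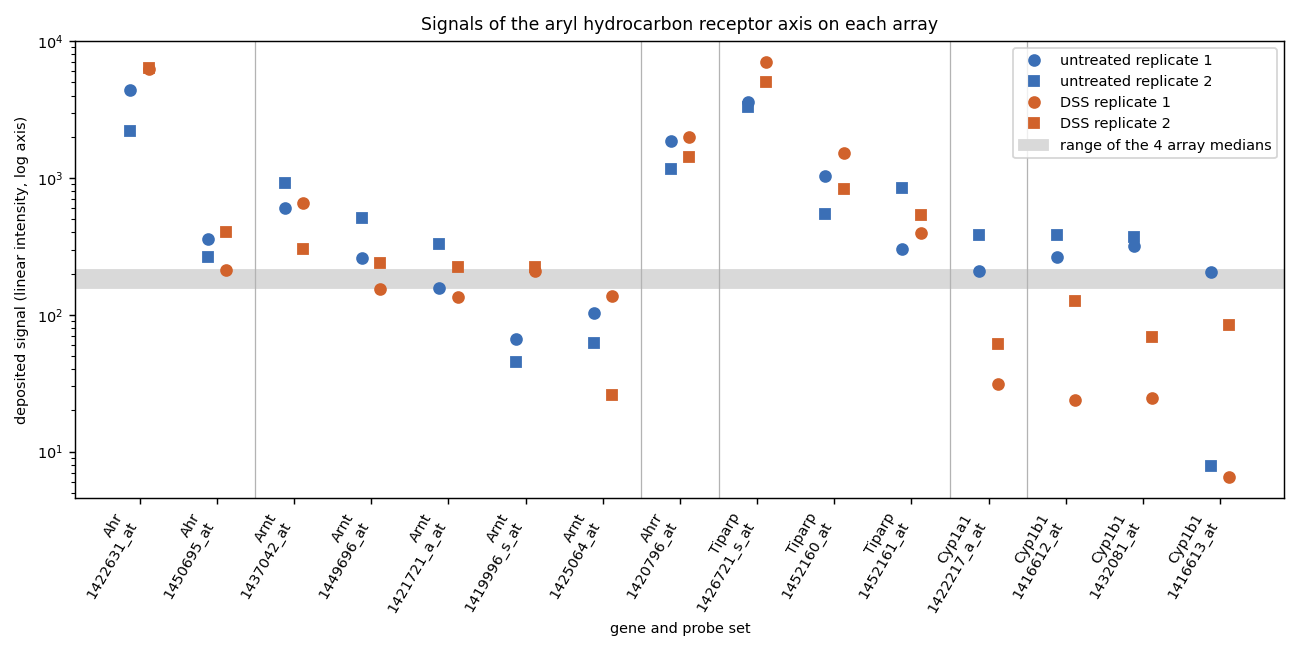
Deposited signal (linear intensity, on a log axis) of the 15 probe sets on each array; blue marks untreated and orange DSS arrays, circles replicate 1 and squares replicate 2, and the grey band spans the array medians of 157.1 to 213.9. The DSS points of Cyp1a1 and Cyp1b1 lie below the band, while every point of Ahr 1422631_at, Ahrr and Tiparp lies above it.

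Ahr, the receptor, was bright on probe set 1422631_at. Its signals were 4403 and 2209.7 in the untreated samples and 6245 and 6389 in the DSS samples. The DSS arrays were close to each other and both above the untreated arrays, which differed from each other 1.99-fold. The log2 difference was 1.01 ± 0.41 (limma moderated SE, n = 2 per group, 95% interval 0.05 to 1.97, limma adjusted p = 0.757). Its size rested on the untreated arrays: it was 1.50 without untreated replicate 1, where the limma adjusted p was 0.0319, and 0.52 without untreated replicate 2. Without untreated replicate 1 the number of calls over all probe sets also went from 0 to 671.

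The other Ahr probe set, 1450695_at, is listed under the same source sequence and was much nearer to the array medians. It had 361 and 262 in the untreated samples and 212 and 402 in the DSS samples, so the groups overlapped. Its log2 difference was -0.06 ± 0.61, with a 95% interval of -1.47 to 1.35 that holds the value of the brighter probe set. With the mean of both probe sets, Ahr differed by 0.47.

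Macrophage markers were higher on the same arrays as Ahr. The summed signal of the 18 macrophage and monocyte markers measured was 11948 and 4815 in the untreated samples and 67156 and 95055 in the DSS samples, and 16 of the 18 were higher on both DSS arrays. Between the untreated samples, the Ahr signal and the macrophage sum were both higher in replicate 1. Between the DSS samples the macrophage sum was higher in replicate 2, while Ahr 1422631_at was close, with 6245 and 6389. Csf1r, which receives the growth signal of macrophages, had 4342 and 1162 against 33267 and 40991, and Cd163, a scavenger receptor of resident macrophages, had the lowest signal of the list, 6.19 on an untreated array. Macrophages also express Ahr, and their part in its signal was not tested. The 16 colonic epithelial markers summed to 22368 and 16299 in the untreated samples and 26039 and 22354 in the DSS samples, which overlapped. Their median log2 difference was 0.51, against -0.14 over all 18194 genes. Of these markers 4 lay higher and 2 lower, beside 14.8% and 25.2% of all genes. The part of epithelial cells in the member signals was not tested. In RNA from a sorted population, a change in the share of cells of a type and a change in RNA per cell cannot be told apart.

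T cell genes were lower in sum on the same arrays. The 13 measured summed to 303043 and 266890 in the untreated samples and 181670 and 175746 in the DSS samples. Their median log2 difference was -0.21, near the -0.14 of all 18194 genes. Of the 13, 5 lay lower, 2 higher and 6 overlapped, beside 25.2% lower and 14.8% higher of all genes. The lower ones included Cd8b1, a chain of the CD8 co-receptor, with 722 and 727 against 137 and 98.6, a log2 difference of -2.35 ± 0.57. Also lower were the receptor kinase Zap70 (-1.10 ± 0.44), the epithelial adhesion integrin Itgae (-1.20 ± 0.70, with 0.52 on its other probe set), Cd8a and Trgv4, while the CD3 chains Cd3d and Cd3g were higher and Cd3e overlapped. None passed the limma adjustment, and the part of this pattern in the Ahr, Tiparp, Cyp1a1 and Cyp1b1 values was not tested.

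Arnt, the partner that Ahr needs to bind DNA and that Hif1a also uses, gave no single direction over its 5 probe sets. On the brightest, 1437042_at, the signals were 604 and 922 in the untreated samples and 659.6 and 304 in the DSS samples. The groups overlapped, and the log2 difference was -0.69 ± 0.52 (95% interval -1.89 to 0.51). It was -0.17 without DSS replicate 2 and -1.21 without DSS replicate 1.

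A pair of Arnt probe sets listed under the same source sequence went opposite ways. Probe set 1449696_at had 259 and 509 in the untreated samples and 155 and 239 in the DSS samples, lower on both DSS arrays, a log2 difference of -0.82 ± 0.65. Probe set 1419996_s_at had 66.3 and 44.9 in the untreated samples and 208 and 223 in the DSS samples, higher on both DSS arrays, a log2 difference of 1.51 ± 0.78. The ending _s_at marks a probe set that can bind related transcripts, so this value is uncertain. Neither passed (limma adjusted p = 0.789 and 0.760).

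The remaining Arnt probe sets were dim and overlapped between groups. Probe set 1421721_a_at had 157 and 329 against 135 and 222, and 1425064_at had 104 and 62.6 against 137 and 25.8. The second of these lay below the median of its array on all 4 arrays. Their log2 differences were -0.34 ± 0.74 and -0.20 ± 0.82.

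Ahrr, the repressor that competes with Ahr for Arnt and is itself induced by Ahr, was read on 1 probe set, 1420796_at. Its signals were 1872 and 1158 in the untreated samples and 2002 and 1417 in the DSS samples. All 4 lay well above the array medians, and the groups overlapped. The log2 difference was 0.19 ± 0.39, with a 95% interval of -0.72 to 1.10. Within each group the arrays differed by more than the groups did, 1.62-fold in untreated and 1.41-fold in DSS samples, against a fold of 1.14 between group means on the log2(signal + 32) scale. The sign turned without untreated replicate 2 (-0.15) and without DSS replicate 1 (-0.06).

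Tiparp (PARP7), a mono-ADP-ribosyltransferase that Ahr induces and that restrains Ahr in turn, had 3 probe sets from 1 source sequence. On the brightest, 1426721_s_at, the signals were 3591 and 3294 in the untreated samples and 7087 and 5026 in the DSS samples. Both DSS arrays lay above both untreated arrays, and the untreated arrays were close together. The log2 difference was 0.79 ± 0.36 (95% interval -0.03 to 1.61; limma adjusted p = 0.757). This probe set too carries the ending _s_at.

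Probe set 1452160_at had 1027 and 541 in the untreated samples and 1513 and 832 in the DSS samples, a log2 difference of 0.57 ± 0.48 with overlapping groups. On 1452161_at the order was different, with 302 and 849.9 in the untreated samples and 393 and 539.9 in the DSS samples. The untreated arrays enclosed both DSS arrays there, and the difference was -0.14 ± 0.58. With the mean of the 3 probe sets, Tiparp differed by 0.41.

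Cyp1a1, the monooxygenase most often read as a sign of Ahr activity, had signals of 208 and 384 on probe set 1422217_a_at in the untreated samples and 31.1 and 60.9 in the DSS samples. Both DSS arrays lay below both untreated arrays. The untreated signals were at the 52nd and 67th percentile of their arrays, so neither was bright. The log2 difference was -2.04 ± 0.81 (95% interval -3.91 to -0.18; limma adjusted p = 0.757).

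Cyp1b1, a related monooxygenase that is also expressed in macrophages and stromal cells, was lower on 2 of its 3 probe sets. Probe set 1432081_at had 319 and 372 in the untreated samples and 24.5 and 68.6 in the DSS samples. Its log2 difference of -2.32 ± 0.79 (95% interval -4.14 to -0.50) had the smallest limma p of the 15 (adjusted p = 0.757). Probe set 1416612_at had 265 and 381 against 23.8 and 125, again lower on both DSS arrays, with a log2 difference of -1.90 ± 0.84, which was -1.16 without DSS replicate 1. On 1416613_at, from the same source sequence as 1416612_at, the groups overlapped, with 204 and 7.93 against 6.48 and 84.6. The untreated arrays differed 25.7-fold there, and the log2 difference was -0.53 ± 0.96.

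The sums of fibroblast and endothelial markers, 6642 and 13620.0 in the untreated samples and 8349.9 and 9379 in the DSS samples, overlapped between groups. Most of these sums came from Thy1, which T cells also express; the 12 others summed to 2632 and 2667 against 1802 and 3149, which overlapped too. Of the 13 markers 0 lay higher, 2 lower and 11 overlapped, beside 14.8% higher and 25.2% lower of all genes. Both lower ones are receptors of platelet-derived growth factor. Pdgfra had 52.0 and 179 in the untreated samples and 15.8 and 7.99 in the DSS samples (-1.61 ± 0.66), and Pdgfrb had 270.1 and 18.3 against 4.29 and 16.01 (-1.56 ± 0.84). For Pdgfrb the gap between groups was small, with 18.3 in untreated replicate 2 and 16.01 in DSS replicate 2. The parts of stromal cells and of macrophages in the Cyp1b1 signal were not tested.

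**Figure D2:**
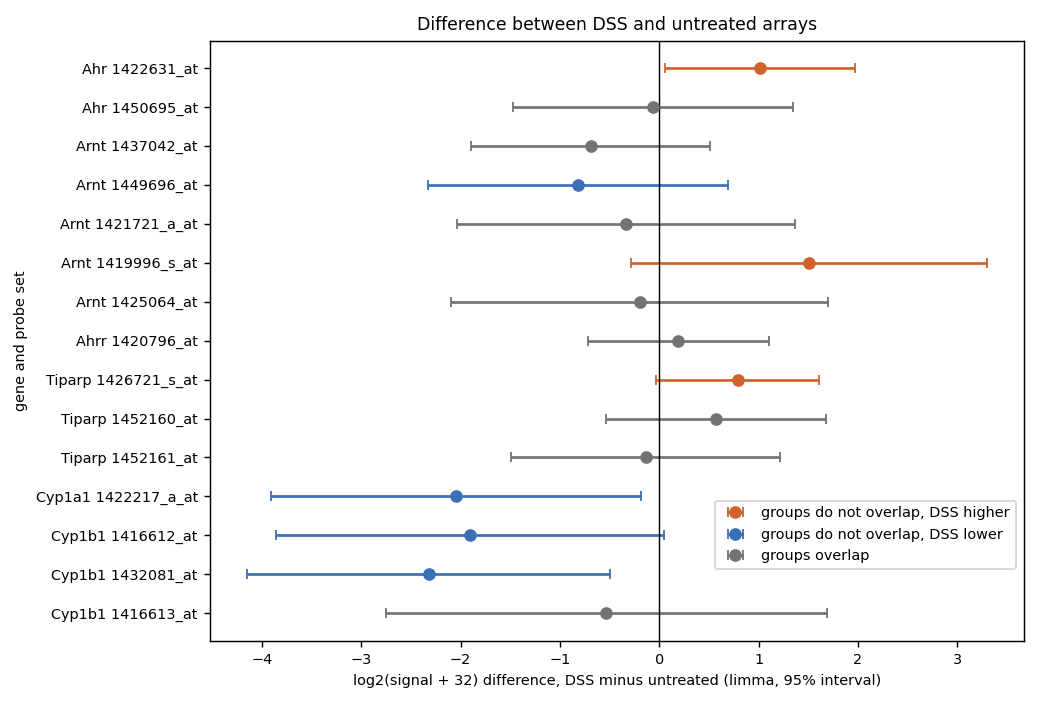
Log2 difference of each probe set, DSS minus untreated, as points with 95% limma intervals, on the log2(signal + 32) scale; orange and blue mark probe sets whose groups do not overlap, and grey those that do. Of the 15 intervals, those of Ahr 1422631_at, Cyp1a1 and Cyp1b1 1432081_at exclude 0 before any adjustment for the number of probe sets.

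The signals of the targets lay in different order between the groups, and their promoters are shown side by side for that reason. RefSeq windows on GRCm38.p6, from 250 bases before to 50 after a transcript start, were matched by gene number for 5 of the 6 genes, all but Ahr. They were searched on both strands for GCGTG, the core of the xenobiotic response element. All 5 windows held it, as did 32.4% of the 32851 windows of this length in the table. The 4 targets are printed 5′ to 3′ on the gene's strand, with each match in capitals (CACGC where it reads on the other strand).
Ahrr promoter, chr13:74292282-74292581, minus strand: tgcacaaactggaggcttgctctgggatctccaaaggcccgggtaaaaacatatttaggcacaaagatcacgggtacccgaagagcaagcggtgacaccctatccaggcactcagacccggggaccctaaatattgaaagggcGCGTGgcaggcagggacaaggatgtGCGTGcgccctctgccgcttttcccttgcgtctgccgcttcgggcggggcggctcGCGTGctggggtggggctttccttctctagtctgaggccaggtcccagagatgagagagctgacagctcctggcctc
Tiparp promoter, chr3:65528197-65528496, plus strand: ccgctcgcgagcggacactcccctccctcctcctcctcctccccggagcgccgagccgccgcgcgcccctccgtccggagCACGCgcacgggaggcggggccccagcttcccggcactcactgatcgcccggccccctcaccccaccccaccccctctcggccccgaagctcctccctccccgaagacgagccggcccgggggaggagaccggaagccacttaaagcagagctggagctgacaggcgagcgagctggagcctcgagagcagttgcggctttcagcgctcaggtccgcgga
Cyp1a1 promoter, chr9:57697363-57697662, plus strand: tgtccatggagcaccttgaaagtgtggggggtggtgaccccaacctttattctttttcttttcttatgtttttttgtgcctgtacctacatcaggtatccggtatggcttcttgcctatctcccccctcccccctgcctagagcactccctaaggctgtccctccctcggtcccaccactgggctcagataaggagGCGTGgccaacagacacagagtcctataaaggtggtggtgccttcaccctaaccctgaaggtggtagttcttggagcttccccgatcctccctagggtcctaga
Cyp1b1 promoter, chr17:79715012-79715311, minus strand: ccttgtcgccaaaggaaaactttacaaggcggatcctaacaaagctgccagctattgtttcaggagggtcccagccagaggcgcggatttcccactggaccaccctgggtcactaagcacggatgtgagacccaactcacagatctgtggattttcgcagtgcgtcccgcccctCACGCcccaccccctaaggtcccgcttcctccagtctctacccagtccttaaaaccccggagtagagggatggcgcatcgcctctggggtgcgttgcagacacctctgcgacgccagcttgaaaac
Ahrr held 3 matches, which 3.91% of all windows equal or exceed, the first base lying 107, 82 and 27 bases before the start. Tiparp had 1 match at 170 bases before the start and Cyp1b1 1 at 76, both on the other strand, and Cyp1a1 had 1 at 54. The Cyp1a1 window lies inside the span that RefSeq records for the gene. A match is a description of letters and does not show a bound site. Both targets with lower signals in DSS samples, the target with higher signals and the target with overlapping groups all had at least 1 match.

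Signal level mattered for how these values read. All probe sets were grouped by their mean percentile of signal on an array. Among the 4124 between the 40th and 50th percentile, where Cyp1a1 and the non-overlapping Cyp1b1 probe sets fell, the median log2 difference was -0.28 and 26.3% lay lower on both DSS arrays. By the 2-fold count in deposited signal, 3.9% of this class were higher and 6.3% lower. In that class 2.72% of probe sets had a lower difference than Cyp1a1, and 1.38% and 3.83% a lower one than Cyp1b1 1432081_at and 1416612_at. Arnt 1419996_s_at fell in the same class with the opposite sign, and 4.15% of the class had a higher difference. The replicate standard deviation in this class was 0.93 log2.

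Among the 3518 probe sets between the 90th and 100th percentile, which include the brightest ones of Ahr, Tiparp and Ahrr, the median difference was 0.13, and 25.7% lay higher on both DSS arrays. Here 4.89% of probe sets had a higher difference than Ahr 1422631_at, 10.7% than Tiparp 1426721_s_at and 45.9% than Ahrr. The replicate standard deviation in this class was 0.52 log2. The medians of both classes had the same signs as these Cyp1a1, Cyp1b1, Ahr, Tiparp and Ahrr values, with smaller sizes.

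**Figure D3:**
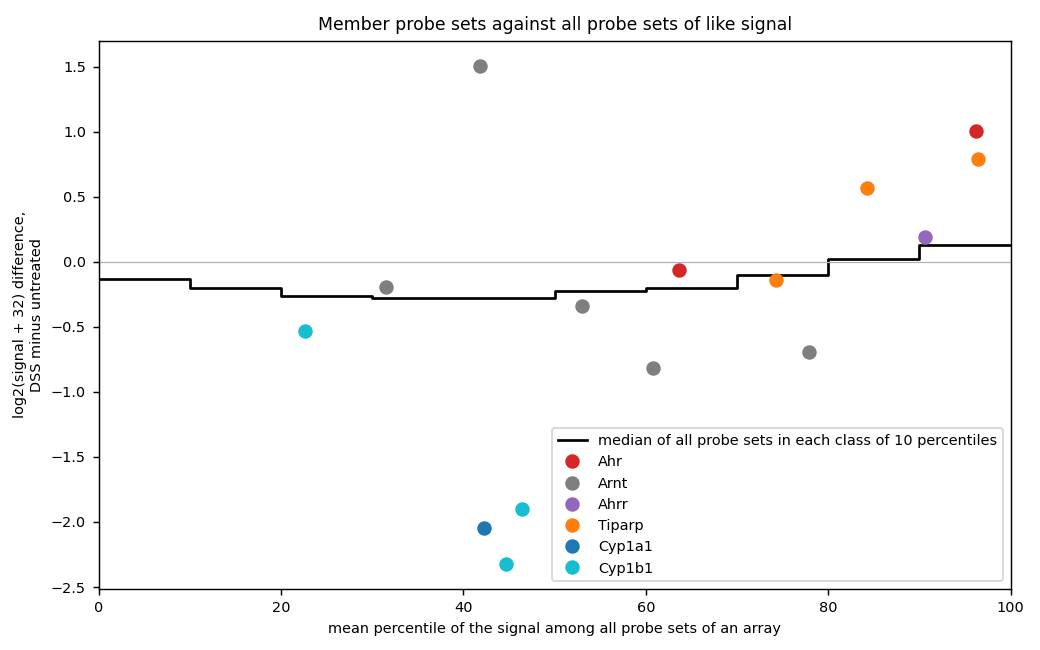
Log2 difference of the 15 member probe sets (points, coloured by gene) against their mean percentile of signal, with the median of all probe sets in each class of 10 percentiles as a black line. The line runs from -0.28 in dim classes to 0.13 in the brightest. Cyp1a1 and 2 Cyp1b1 probe sets lie far below it, Arnt 1419996_s_at lies far above it and Ahr 1422631_at lies above it.

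Other genes of the pathway were read from lists, each gene by its brightest probe set. Over all 18194 genes the median log2 difference was -0.14, and 14.8% lay higher and 25.2% lower on both DSS arrays. Limma passed 0 genes of any list after adjustment, so the list values below are a description.

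Of 5 cytosolic partners of Ahr, 2 were measured on a probe set of their own, and both lay higher in the DSS samples. The chaperone Hsp90aa1 differed by 0.47 ± 0.44, with its other probe sets between -0.67 and 1.31, and the kinase Src by 1.04 ± 0.57, with -1.58 on its other probe set. Of 12 coregulators listed, 10 were measured, all above the array median on all 4 arrays. Their median was 0.45, and 4 lay higher and 0 lower, among them the ubiquitin ligase scaffold Cul4b (0.86 ± 0.43) and the acetyltransferase Crebbp (0.76 ± 0.40). All 10 lay between the 70th and 100th percentile of signal, where the class medians of all probe sets ran from -0.10 to 0.13. In these classes 16.3% to 25.7% of probe sets lay higher and 14.8% to 25.9% lower. The median of the coregulators was 0.23 without untreated replicate 2 and 0.79 with scaling to a common median. That scaling moved the median of all probe sets from -0.14 to 0.13.

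Of the 13 other bHLH-PAS genes, 2 lay higher and 6 lower, with a median of -0.50. Hif1a, the oxygen-regulated factor that shares Arnt with Ahr, had 2386 and 928 in the untreated samples and 3722 and 4107 in the DSS samples. It differed by 1.37 ± 0.47 (limma adjusted p = 0.757) on its brightest probe set, with others down to -0.29. As for Ahr, its untreated signals were far apart with replicate 2 the lower, and without untreated replicate 1 it differed by 2.04 (limma adjusted p = 0.0153). Npas1, a neuronal factor, was dim and differed by -1.94 ± 0.74. Only 5 of these 13 genes were above the array median on all 4 arrays, and among the genes kept by a filter on dim probe sets the list's median was 0.24. It was -0.26 after quantile normalization and -0.18 with a common median.

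The 8 other xenobiotic response genes measured gave varied values. Their median was 0.27, with 0 higher, 1 lower and 7 overlapping. The median was -0.09 without untreated replicate 2, 0.61 without untreated replicate 1, 0.11 without DSS replicate 1 and 0.43 without DSS replicate 2, and 0.41 to 0.56 under the other scalings. Gsta2, a glutathione transferase, had 26.6 and 144 in the untreated samples and 8.01 on the lower DSS array, and lay below the median on all 4 arrays, and Xdh (xanthine dehydrogenase) differed by 1.26 ± 0.94 with untreated signals of 505 and 41.0.

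Of 13 genes of tryptophan uptake and metabolism, 2 lay higher and 4 lower, with a median of 0.36. Afmid, which makes kynurenine from formylkynurenine, had 48.4 and 77.1 in the untreated samples and 334 and 344 in the DSS samples, a difference of 1.99 ± 0.75, with other probe sets down to 0.26. Haao, a later enzyme of the route, differed by -1.36 ± 0.84. The list's median was -0.30 without untreated replicate 1 and -0.11 without untreated replicate 2, so its sign rested on both untreated arrays being used, and it was 0.62 with a common median.

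Immune genes linked to Ahr in lymphocytes had a median of 0.29 over 14 measured, with 6 higher and 2 lower. It was 0.54 without untreated replicate 1 and 0.62 with a common median. Kit, a receptor tyrosine kinase whose expression in gut lymphoid cells depends on Ahr, had 751 and 798 in the untreated samples and 1967 and 1942 in the DSS samples. Replicates were close in both groups, and the difference was 1.30 ± 0.35 (limma adjusted p = 0.757), with -0.58 on its other probe set. The transcription factor Maf, which macrophages also express, differed by 2.69 ± 0.70 where it was brightest, and its other probe sets went down to -0.84. Mast cells express Kit as well. Of the 11 mast cell, basophil and innate lymphoid markers measured, 0 lay higher and 2 lower on both DSS arrays, beside 14.8% and 25.2% of all genes. Their summed signals were 1638 and 2722 in the untreated samples and 1658 and 2082 in the DSS samples. Only 1 of the 11 was above the array median on all 4 arrays. The part of mast cells in the Kit signal was not tested.

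The genes with the pattern most like that of Ahr 1422631_at, by the largest log2 distance over the 4 centred array values, were Casc3 (0.02), Rap1a (0.03) and Msh3 (0.06). Rap1a, a small GTPase, had 8064 and 4078 in the untreated samples and 11468 and 12003 in the DSS samples. With 4 arrays such likeness is common: 154 of 11720 genes lay within 0.25 of Ahr.

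**Figure D4:**
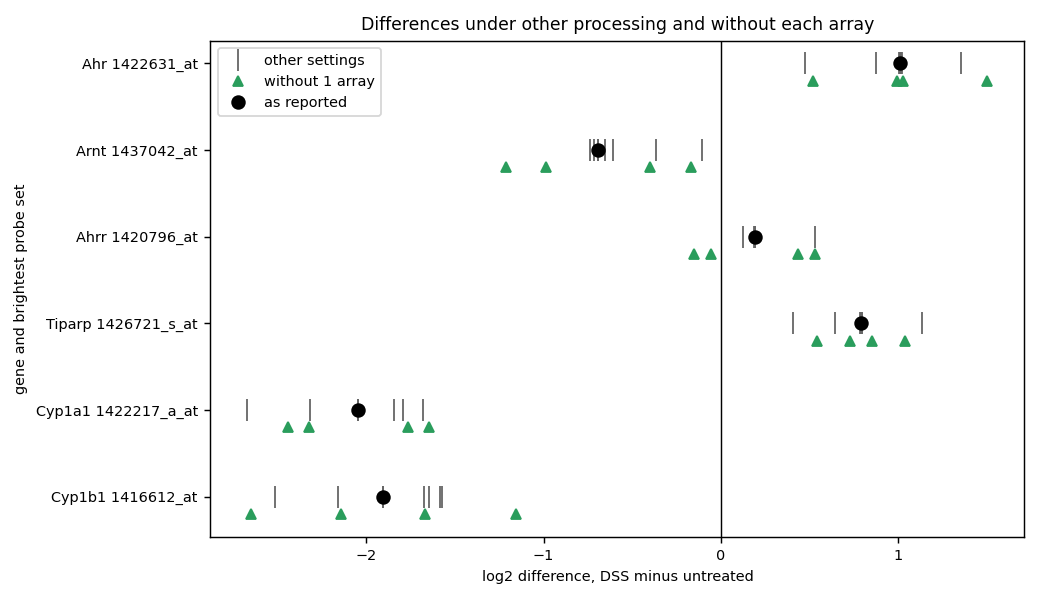
Log2 difference, DSS minus untreated, of each gene's brightest probe set as reported (black circle), under other processing settings (grey ticks) and without each array in turn (green triangles). Ahr spans 0.47 to 1.50, Tiparp 0.41 to 1.13, Cyp1a1 -2.67 to -1.65 and Cyp1b1 -2.65 to -1.16, all on 1 side of 0, while Ahrr crosses it. The grey ticks include the mean over a gene's probe sets, which gave the lowest values of Ahr and Tiparp.

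Under the 14 other settings run for them, the brightest probe sets of Ahr, Tiparp, Cyp1a1, Cyp1b1 and Arnt kept their direction. In 1 of these settings the mean over a gene's probe sets stood in for the brightest. Most of the settings could not turn a sign, so the count of 14 is no measure of robustness. The dim filter, the choice of the brightest probe set after it, the variance trend and the replicate block left each difference unchanged. For Ahr, Tiparp, Cyp1a1 and Cyp1b1 the groups did not overlap, so neither another pseudocount nor leaving out an array could turn the sign. The one call among all member values was that of Ahr without untreated replicate 1.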

How the data were processed

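Total RNA of 2 untreated and 2 DSS samples was isolated with a PicoPure kit, amplified with a RiboAmp HS kit and hybridised, per the labels' protocols. The authors deposited linear signal intensities, 1 per probe set and array. GCOS produced them, per the submitters' processing notes, with version and algorithm not given in the sources. On every array the trimmed mean (2% off each end) was 500.0, so arrays had been scaled alike. Of 45101 probe sets, 34958 carry 1 gene symbol in the platform table, 932 several and 9211 none; the last groups were not used. The number of arrays limits the precision.

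Values were analysed as log2(signal + 32) without further normalization. The main counts of probe sets at least 2-fold apart used the deposited signals with nothing added. Unlike a gene-level analysis, all 34958 probe sets were fitted, with no filter, so that every member has a value. The groups were compared with limma 3.58.1 in R 4.3.3 (lmFit, eBayes with an intensity trend, group only) with Benjamini-Hochberg adjustment over all of them; the fit was tested on simulated data. Values after ± are limma's moderated standard errors. These draw on the spread of all probe sets of like signal as well as on a probe set's own arrays. Lists are described by counts and medians. Named from each pathway list are the 2 genes with the smallest p, and the genes nearest Ahr by the stated distance; Cd3d, Cd3e, Cd3g, Trgv4, Csf1r, Cd163, Cd8a, Cd8b1, Zap70, Itgae, Thy1, Pdgfra and Pdgfrb were named after their values were seen. The members and lists were chosen with earlier results of these data known. Promoter windows are from RefSeq, GRCm38.p6. Alternatives changed the scaling, the pseudocount, the dim filter, the choice of probe set, the variance trend or the replicate block, or left out an array.

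Replicate numbers were not taken as pairing: deviations of same-numbered arrays from their group means correlated at r = 0.03 across probe sets.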

Additional observations from a re-analysis of the deposited data

How the results depend on the processing

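Calls over all probe sets were 0 as reported and under each scaling, pseudocount, filter, probe set choice and variance model tried. A fit with a replicate block called 35 probe sets by limma, 0 of them members, though same-numbered arrays did not deviate together. Without 1 array the calls ran from 0 to 671, calls of member probe sets from 0 to 1 and of pathway genes from 0 to 3 (Hif1a, Ncoa2 and Ddc, without untreated replicate 1). A lone array is then assumed to vary like the other group.

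Signs turned for dim or overlapping probe sets. After quantile normalization Ahr 1450695_at was 0.21 and Arnt 1425064_at 0.027; after common median scaling they were 0.25 and 0.036, and Tiparp 1452161_at was 0.19. Without 1 array the values ran from -0.48 to 0.35 for Ahr 1450695_at, -0.81 to 0.13 for Arnt 1421721_a_at, -0.97 to 0.58 for Arnt 1425064_at, -0.15 to 0.53 for Ahrr, -0.84 to 0.56 for Tiparp 1452161_at and -1.82 to 0.75 for Cyp1b1 1416613_at. The cause was not tested.

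Counts of all probe sets without overlap moved from 5073 higher and 8617 lower to 8434 and 5314 with a common median, where the median log2 difference of all probe sets was 0.13 against -0.14 as reported. Of those counted, 37.1% were higher as deposited, 49.3% with quantile normalization and 61.3% with a common median. With the filter on dim probe sets, which tests fewer of them, 4678 lay lower. At least 2-fold apart were 1086 higher and 1859 lower; 1226 lower by quantile normalization; 1720 and 1143 by common median scaling; 471 and 645 with a pseudocount of 64; and 516 and 636 with the filter. Without 1 array, which leaves fewer values to order, the counts ran from 8494 to 11651 higher and 13240 to 16577 lower, and at 2-fold from 2170 to 4397 and 4709 to 5487. No detection calls were used, so whether the DSS signals of Cyp1a1 and Cyp1b1 exceed background is not known.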
